A study of Mus musculus with 133 samples.

Results

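The genes described here were 10 genes of macrophages and of the CSF1 axis, followed across mouse mammary tumours. They were picked by symbol and comprised the ligand gene Csf1, the receptor gene Csf1r, the general macrophage genes Adgre1 and Cd68, the genes Mrc1 and Cd163 of resident-like macrophages, Arg1, and the complement genes C1qa, C1qb and C1qc. All 10 were found among the 19938 genes that a probeset of the array names alone, each through 1 probeset. The series held 133 arrays of whole mammary tumours from female F1 mice, whose mothers were Diversity Outbred and whose fathers carried the MMTV-PyMT transgene. Every tumour was untreated and carried the polyoma middle T antigen under the mouse mammary tumour virus promoter, which is active in mammary epithelium. Animals were kept until the tumour load neared the humane endpoint, no age was given, and each animal had its own mixture of founder alleles. There was 1 biological group and no control group, so the comparisons that the design allows are relations between genes across tumours.

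CSF1 is a growth factor that macrophages need to survive, divide and mature, and it acts through the receptor tyrosine kinase CSF1R, which macrophages and their precursors carry. The ligand itself is made by many cells, among them fibroblasts, endothelium and tumour cells. Macrophages are abundant in mammary tumours of the PyMT model and occur in different states. Resident-like macrophages carry the mannose receptor MRC1 and the haemoglobin scavenger receptor CD163. Other macrophages make arginase 1, which splits arginine, and many make the C1q chains that start the classical complement pathway. In whole tumours, fewer macrophages and less RNA per macrophage cannot be told apart.

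Arrays with a running number in the title (48 animals) and arrays with other titles (79 animals) were kept apart, since the median log2 level of an array averaged 6.18 (SD 0.034, n = 48) in running-number titles and 5.96 (SD 0.0758, n = 79) in other titles. What the form of the title stands for is not given in the sources used here. A further 6 arrays with the suffix r averaged 5.45 (SD 0.0738, n = 6) and were left out, which left 48 and 79 tumours, each from its own animal. Of these, 4 arrays correlated least with the others, with a mean r of 0.906 in animal 14312, 0.917 in 14320, 0.944 in 14095 and 0.945 in 14094, and the main counts and the calls that change are given with and without them. The luminal epithelial genes were high throughout, as Krt8 averaged 12.09 ± 0.31 and Epcam 11.24 ± 0.22 on the log2 scale (SD, over the 48 and 79 tumours together). The mean of the general macrophage list ran from 7.54 to 9.19 in running-number titles and from 7.61 to 9.20 in other titles.

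The ligand gene varied least of the 10. Csf1 ran from 6.95 over a median of 7.46 to 8.02 in running-number titles and from 6.35 over a median of 7.35 to 7.83 in other titles, all on the log2 scale. After the mean of each title form was subtracted, its SD was 0.255, higher than that of 65.4% of all genes, for which the median SD was 0.217. The receptor gene spread further. Csf1r ran from 7.68 over a median of 9.10 to 9.74 in running-number titles and from 7.74 over a median of 9.02 to 10.03 in other titles, with an SD of 0.456, above 91.2% of genes.

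The general macrophage genes varied about as much as the receptor gene. Adgre1, which encodes an adhesion-class receptor long used as a macrophage marker, ran from 6.53 over a median of 8.19 to 8.99 in running-number titles and from 6.32 over a median of 7.88 to 8.75 in other titles (SD 0.490). Cd68, which encodes a lysosomal membrane protein, ran from 7.72 over a median of 8.76 to 9.32 in running-number titles and from 6.60 over a median of 8.34 to 9.30 in other titles (SD 0.433). The complement genes, whose products form a single complex, were close to these. C1qa ran from 7.20 over a median of 8.57 to 9.29 in running-number titles and from 7.23 over a median of 8.19 to 9.06 in other titles (SD 0.420). C1qb ran from 8.77 over a median of 10.15 to 10.71 in running-number titles and from 9.11 over a median of 9.99 to 10.90 in other titles (SD 0.430). C1qc ran from 7.77 over a median of 9.29 to 10.00 in running-number titles and from 7.97 over a median of 9.10 to 10.18 in other titles (SD 0.484). For each of these genes the title forms overlapped over most of their range.

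Mrc1, Cd163 and Arg1 spread most of the 10 genes. Which cells of the tumour held the Arg1 RNA was not tested. Mrc1 ran from 5.22 over a median of 7.54 to 9.50 in running-number titles and from 5.36 over a median of 7.48 to 8.80 in other titles, and its SD of 0.793 was higher than that of 98.2% of genes. Cd163 ran from 5.55 over a median of 6.61 to 8.85 in running-number titles and from 5.15 over a median of 6.51 to 8.06 in other titles (SD 0.740, above 97.8% of genes). Arg1 was the most variable member and ran from 6.79 over a median of 8.99 to 10.65 in running-number titles and from 6.40 over a median of 8.45 to 11.01 in other titles (SD 0.936, above 99.1% of genes). In centred values, the highest of all tumours exceeded the lowest by 25.0-fold for Arg1, 19.4-fold for Mrc1, 11.8-fold for Cd163, 6.52-fold for Cd68 and 2.84-fold for Csf1.

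**Figure D1:**
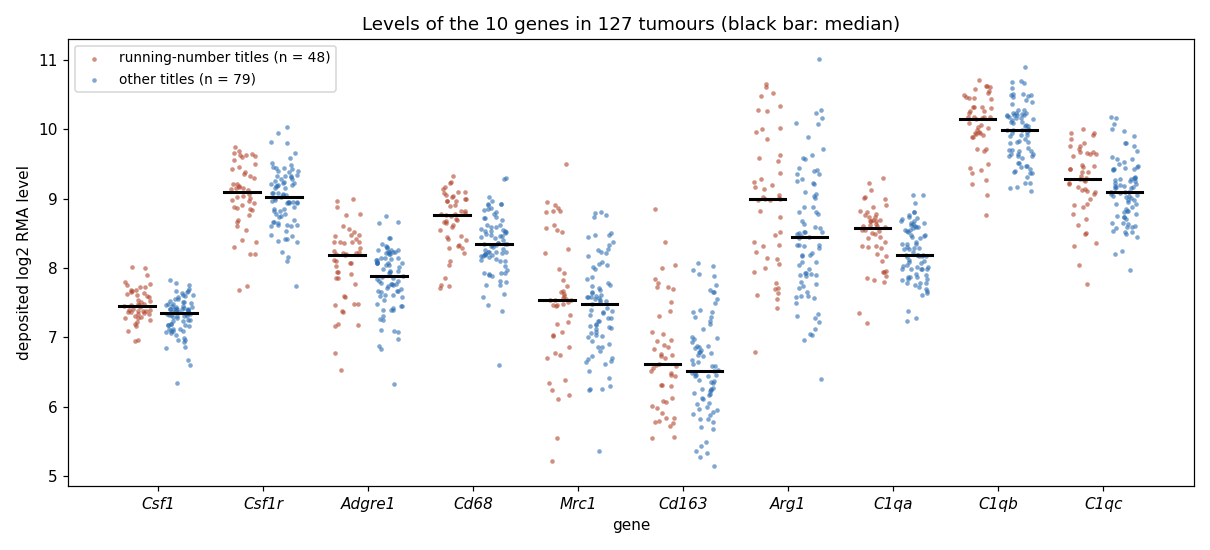
Deposited log2 level (vertical axis) of the 10 genes in each tumour, with running-number titles (48 tumours) left of other titles (79 tumours) and black bars at the medians. Mrc1, Cd163 and Arg1 spread over several log2 units, while Csf1 stays between 6.35 and 8.02.

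Both title forms overlapped for every member. Running-number minus other titles, the difference was 0.16 for Csf1 (SE 0.047, adjusted p = 0.00122), 0.34 for Cd68 (adjusted p = 6.07e-05), 0.26 for C1qa (adjusted p = 0.00163), 0.21 for Adgre1 (adjusted p = 0.0271) and 0.43 for Arg1 (SE 0.17, adjusted p = 0.017) in limma with Benjamini-Hochberg adjustment over all genes. These 5 of 10 members called higher stood against a background of 69.6% of all genes called higher and 5.72% called lower, and the median gene was 0.18 higher in running-number titles. Csf1r (0.022), Mrc1 (0.097), Cd163 (0.14), C1qb (0.10) and C1qc (0.12) were not called. After quantile normalization 7 of the 10 differences lay below 0, at -0.056 for Csf1, -0.19 for Csf1r, -0.010 for Adgre1, -0.12 for Mrc1, -0.082 for Cd163, -0.13 for C1qb and -0.097 for C1qc. Of all 10 only that of Csf1r then passed (adjusted p = 0.0361), and Cd68 (0.12), Arg1 (0.21) and C1qa (0.034) stayed above 0 without passing. Relations between genes are therefore given within title form.

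Tumours with more Csf1 had more of the receptor gene and more of the general macrophage and complement genes. Pearson r with Csf1 was 0.524 for C1qb (95% interval 0.384 to 0.640), 0.515 for Csf1r (0.374 to 0.633), 0.448 for C1qc, 0.444 for C1qa, 0.442 for Adgre1 and 0.436 for Cd68, and Spearman's rho ran from 0.402 to 0.558. Each of these 6 had a permutation p of 1e-05 for both measures, the smallest that 100000 draws can give. The 95% intervals of all 6 overlapped. Among all 19937 other genes ordered by r with Csf1, C1qb stood at place 11 and Csf1r at 13, followed by C1qc at 59, C1qa at 66, Adgre1 at 71 and Cd68 at 78.

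The resident-like genes were also higher in tumours with more Csf1, and Arg1 ran the other way. Mrc1 had r 0.399 (rho 0.402, permutation p = 1e-05 each) and Cd163 r 0.265 (permutation p = 0.0026, rho 0.283, permutation p = 0.00145). Arg1 had r -0.228 (permutation p = 0.00998, rho -0.233, permutation p = 0.0088). The r of Arg1 minus that of Adgre1 was -0.670 (permutation p = 1e-05), the r of Mrc1 minus that of Adgre1 -0.043 (permutation p = 0.58), and the r of Cd163 minus that of Adgre1 -0.177 (permutation p = 0.0399), where each draw permuted Csf1 and so broke its link with both genes. The Cd163 difference was -0.132 without the 4 arrays of lowest correlation (permutation p = 0.118) and -0.121 with the array median as a term (permutation p = 0.154), so it did not pass under either.

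Both title forms gave the same sign for every member. In running-number titles r with Csf1 was 0.649 for Csf1r, 0.670 for C1qb, 0.668 for C1qc, 0.575 for Adgre1, 0.523 for Mrc1, 0.432 for Cd163 and -0.277 for Arg1. In other titles it was 0.439 for Csf1r, 0.443 for C1qb, 0.321 for C1qc, 0.363 for Adgre1, 0.325 for Mrc1, 0.168 for Cd163 and -0.201 for Arg1. The difference in the slope on Csf1 between title forms did not pass the threshold for any of the 9 members, with the lowest adjusted p at 0.156 for C1qc, and 0.01% of all genes passed it. Unadjusted limma p was under 0.05 for C1qc (0.00505), C1qa (0.0147), Mrc1 (0.0233), Adgre1 (0.0249), Csf1r (0.0251) and C1qb (0.0353), each steeper in running-number titles. It was not for Cd163, Cd68 and Arg1, and it was for 3190 of 19937 genes. Without the 2 tumours farthest from the median, r lay between 0.288 and 0.527 for the 8 members above 0 and was -0.222 for Arg1.

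**Figure D2:**
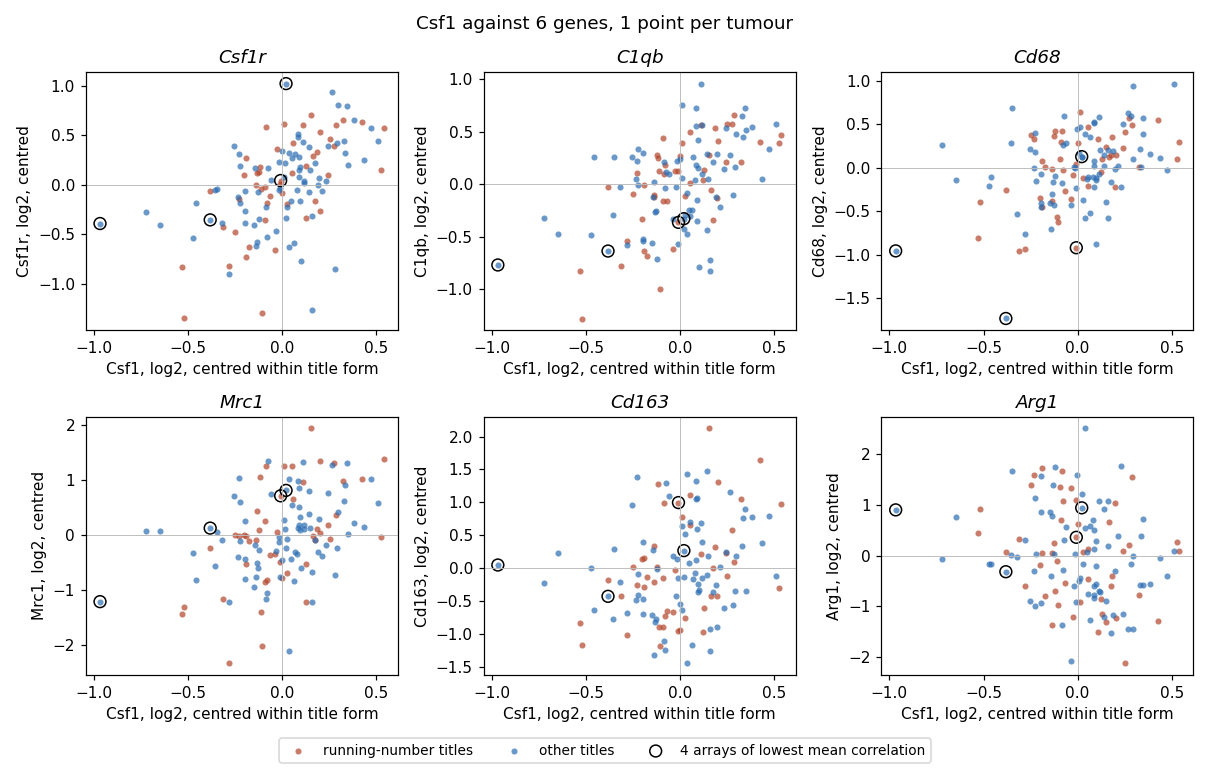
Centred log2 level of Csf1 (horizontal axes) against that of Csf1r, C1qb, Cd68, Mrc1, Cd163 and Arg1 (vertical axes), 1 point per tumour, by title form, with rings around the 4 arrays of lowest mean correlation. Csf1r and C1qb climb with Csf1 (r 0.515 and 0.524), Cd163 does so with wide scatter (r 0.265), and Arg1 slopes downward (r -0.228).

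In the fit of all genes on Csf1, given as the log2 change per SD of Csf1, 8 of 9 members were higher and Arg1 was lower. The background was 7.65% of all genes called higher and 23.5% called lower. The slopes were 0.24 for Csf1r (SE 0.035, adjusted p = 6.31e-07), 0.23 for C1qb (SE 0.033, adjusted p = 3.59e-07), 0.22 for Adgre1, 0.22 for C1qc, 0.19 for Cd68, 0.19 for C1qa, 0.32 for Mrc1 (SE 0.064, adjusted p = 0.000191) and 0.20 for Cd163 (SE 0.063, adjusted p = 0.0125). Arg1 had a slope of -0.21 (SE 0.081, adjusted p = 0.0341), which did not pass without the 4 arrays of lowest correlation (adjusted p = 0.086) or without the title form term (adjusted p = 0.213). The count over all genes was 6205 with the 4 arrays and 2422 without them, where 6.16% of genes were higher and 5.99% lower.

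Other genes of the axis and of macrophages were higher along with Csf1. The lists of genes counted here hold some of the 10 genes too. Of 15 other axis genes 12 were higher and 1 lower (without the 4 arrays 13 higher and 0 lower). The lower one was the growth factor gene Csf2 (-0.073, SE 0.019, adjusted p = 0.00172), which did not pass without the 4 arrays (adjusted p = 0.374). Among the higher were Ccl2, a chemokine gene whose product draws monocytes (0.17), its receptor gene Ccr2 (0.23), the chemokine gene Cx3cl1 (0.20) with its receptor gene Cx3cr1 (0.17), the signalling adaptor gene Tyrobp (0.18) and Spi1, which encodes the macrophage transcription factor PU.1 (0.16). Il34, the other ligand gene of CSF1R, had a slope of 0.035 (SE 0.029, adjusted p = 0.37), and 0.073 without the 4 arrays (adjusted p = 0.036). Of 15 general macrophage genes 13 were higher, with a median slope of 0.18 against -0.017 over all genes, led by the lysosomal protease gene Ctss (0.28, SE 0.041) and the lysozyme gene Lyz2 (0.26, SE 0.049). Of 13 complement genes 11 were higher, including Cfb, factor B of the alternative pathway (0.32), and Serping1, the C1 inhibitor (0.29).

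The lists of macrophage states gave different counts with Csf1, a difference that was not tested. Of 18 resident-like genes 12 were higher (median 0.16), and of 8 monocyte genes 6. Of 13 genes of lipid-associated macrophages 8 were higher (4 without the 4 arrays) and 1 was lower, the fatty acid binding protein gene Fabp5 (-0.13, adjusted p = 0.0476, and 0.0551 without the 4 arrays). Of 14 genes of arginase-positive and inflammatory macrophages 3 were higher and 2 lower (median 0.00060), and without the 4 arrays 4 were higher and 0 lower (median 0.051). The lower ones were Arg1 and the cytokine gene Il10 (-0.052). Those higher with all arrays were the cytokine gene Il1b (0.19), the chemokine gene Ccl3 (0.19) and Retnla (0.36), the last not without the 4 arrays (adjusted p = 0.108). Markers of other cell types moved with Csf1 too. Of 12 fibroblast genes 11 were higher (7 without the 4 arrays) and of 10 endothelial genes 7, while 0 of 8 adipocyte and 1 of 10 luminal epithelial genes were. The mean of the fibroblast list ran from 7.62 to 10.00 in running-number titles and from 7.27 to 9.85 in other titles, and its part in the relation was not tested.

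The genes closest to Csf1 included genes of antigen presentation. The 8 of highest r over all tumours were H2-Aa (0.564), P2ry6 (0.556), Fxyd5 (0.556), Cd74 (0.552), Tmbim1 (0.545), Ctsb (0.537), H2-Ab1 (0.533) and Axl (0.528). H2-Aa, H2-Ab1 and Cd74 encode class II chains and their invariant chain, P2ry6 a nucleotide receptor, Ctsb a lysosomal protease, and Axl a receptor tyrosine kinase for GAS6. The 8 of lowest r began with Pus10 (-0.567) and ended with Dtwd2 (-0.471), with Nsun7, Olfr473, Gcfc2, Usp3, Smyd4 and Srbd1 between them.

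Once the receptor gene was held equal, most members no longer passed the test against Csf1. At equal Csf1r the slope was 0.014 for Adgre1 (95% interval -0.037 to 0.065), 0.0077 for Mrc1 (-0.084 to 0.099), 0.011 for C1qa (-0.032 to 0.054), 0.066 for Cd68 (0.0050 to 0.13), -0.055 for Cd163 (-0.16 to 0.045) and -0.095 for Arg1 (-0.25 to 0.063), per SD of the part of Csf1 that Csf1r and title form did not account for. Only C1qb of the 8 members passed (0.070, SE 0.025, adjusted p = 0.0393), against 3.32% of all genes called higher and 13.7% lower, and it did not pass without the 4 arrays (adjusted p = 0.514) or under 3 other alternatives, while Cd68 passed without the title form term (adjusted p = 0.00819) and after quantile normalization (adjusted p = 0.0436). Of all genes 3399 were called with these arrays and 51 without them. Of the 18 resident-like genes 0 were called higher, at a median slope of -0.022.

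Chemokine genes were among those that passed at equal Csf1r. Ccl2 had a slope of 0.12 (SE 0.028, adjusted p = 0.00312), 0.13 without the 4 arrays (adjusted p = 0.00844) and 0.14 with the array median as a term (adjusted p = 0.00464). Ccl3 had 0.17 and, without the 4 arrays, 0.21 (adjusted p = 0.0447). Cx3cl1 (0.16), H2-Aa (0.11), H2-Ab1 (0.11) and Cd74 (0.10) passed with all arrays and did not without the 4 (adjusted p between 0.121 and 0.307). Of 10 hypoxia genes 4 passed, the glucose transporter gene Slc2a1 (0.17), the vascular growth factor gene Vegfa (0.15), the peptide hormone gene Adm (0.22) and Ndrg1 (0.19), and without the 4 arrays their adjusted p lay between 0.07 and 0.235.

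The largest slopes on Csf1 at equal Csf1r on the higher side were BC018473 (0.92), Csn1s1 (0.43), Usp18 (0.36), Ifit1 (0.35), Ifit3 (0.33), Rsad2 (0.32), Hhipl2 (0.30) and Irf7 (0.27). Usp18, Ifit1, Ifit3, Rsad2 and Irf7 are induced by interferon, and Csn1s1 is a casein gene. On the lower side stood Meis1 (-0.44), Cpm (-0.40), Dpyd (-0.31), Abcd2 (-0.29), Hp (-0.28), Cldn10 (-0.27), Hpse2 (-0.27) and Sec14l4 (-0.24). The 8 higher genes had larger slopes in other titles. Each of these slopes is per SD of the remaining Csf1 within its own title form, so the units differ. The difference was not tested. The slope of BC018473 was 0.19 in running-number titles and 1.28 in other titles, and that of Ifit1 was 0.083 in running-number titles and 0.48 in other titles. Cldn10 went the other way, with -0.44 in running-number titles and -0.19 in other titles. None of these 16 genes passed without the 4 arrays, where their adjusted p ran from 0.0776 to 0.47.

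The receptor gene was close to most macrophage genes. Csf1r had r 0.820 with C1qa (95% interval 0.753 to 0.870), 0.810 with Adgre1 (0.740 to 0.863), 0.789 with C1qc, 0.759 with Mrc1, 0.746 with C1qb, 0.639 with Cd163 and 0.594 with Cd68, each with a permutation p of 1e-05. These r lay between 0.643 and 0.931 in running-number titles and between 0.568 and 0.737 in other titles. The genes most like Csf1r over all tumours were Axl (0.889), Laptm5 (0.869), Nckap1l (0.869), Inpp5d (0.867), Pld4 (0.862), Tm6sf1 (0.847), Il10ra (0.840) and Adap2 (0.833). Laptm5 encodes a lysosomal protein of blood cells, Nckap1l an actin regulator, Inpp5d a lipid phosphatase and Il10ra a chain of the interleukin-10 receptor.

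In the fit on Csf1r, 8 of 9 members were higher and Arg1 was lower (-0.26, SE 0.080, adjusted p = 0.011), where 10.5% of all genes were higher and 11.6% lower. Of 18 resident-like genes 18 were higher (median 0.29), and Il34 was higher (0.16, SE 0.026). Of 12 proliferation genes 11 were lower, such as the spindle checkpoint gene Bub1 (-0.24), and of 10 hypoxia genes 6 were lower, such as the carbonic anhydrase gene Car9 (-0.39) and Egln3 (-0.26). Other tissue moved with Csf1r as well. Of 12 fibroblast genes 12 were higher, of 10 endothelial genes 10, and of 8 adipocyte genes 8 (median 0.61), and their part in these relations was not tested.

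**Figure D3:**
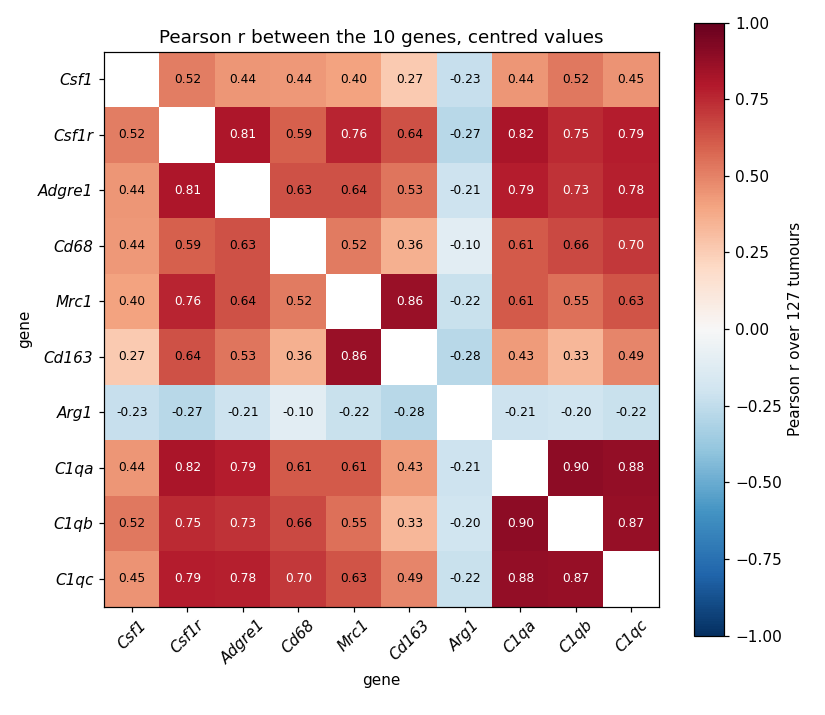
Pearson r between the 10 genes over all tumours, from centred log2 values, with the genes in the same order on both axes, red above 0 and blue below. The pairs among C1qa, C1qb and C1qc (0.874 to 0.898) and the pair Mrc1 and Cd163 (0.860) stand out, and Arg1 is below 0 with every other gene.

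Over all 45 pairs of the 10 genes, 36 had r above 0 and 44 had a permutation p under 0.05. The 28 pairs without Csf1 and Arg1 ran from 0.334 (Cd163 and C1qb) over a median of 0.650 to 0.898. The 3 complement genes were the tightest group. C1qa and C1qb had r 0.898 (95% interval 0.858 to 0.927), C1qa and C1qc 0.876 (0.829 to 0.912) and C1qb and C1qc 0.874 (0.826 to 0.910), each with a permutation p of 1e-05. In running-number titles these r ran from 0.885 to 0.936, and in other titles from 0.835 to 0.871.

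Of the 10 genes 6 matched an entry in the RefSeq promoter table (build GRCm38.p6), namely Csf1, Cd68, Mrc1, Cd163, C1qb and C1qc. The 250 bases before the start are shown for C1qb (chr4:136886201-136886450, minus strand) and C1qc (chr4:136892915-136893164, minus strand), because these genes of chromosome 4 moved so closely together. Capitals mark GAGGAA or its reverse complement TTCCTC, the core of sites for PU.1 and related ETS factors.
C1qb: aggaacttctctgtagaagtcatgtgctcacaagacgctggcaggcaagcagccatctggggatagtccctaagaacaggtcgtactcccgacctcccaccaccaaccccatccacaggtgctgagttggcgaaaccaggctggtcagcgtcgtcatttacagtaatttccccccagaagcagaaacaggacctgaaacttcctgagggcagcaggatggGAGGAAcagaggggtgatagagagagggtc
C1qc: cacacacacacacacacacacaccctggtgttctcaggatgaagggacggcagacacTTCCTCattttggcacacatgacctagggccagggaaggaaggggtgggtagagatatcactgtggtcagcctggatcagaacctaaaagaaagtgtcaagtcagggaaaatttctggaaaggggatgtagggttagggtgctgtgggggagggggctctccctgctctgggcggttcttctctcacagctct
Each window held 1 match, beginning at position -30 from the start in C1qb and at -193 in C1qc, where it reads as TTCCTC. Of 32851 windows of this length 23.3% held GAGGAA on either strand. TGCTGA or its reverse complement TCAGCA, the core of sites for MAF factors, was matched 1 time in C1qb and 0 times in C1qc, and in 16.1% of all windows. TGANTCA (AP-1) and TTGCNNAA or its reverse complement TTNNGCAA (C/EBP) had 0 matches in either window and occurred in 6.75% and 9.56% of all windows. A match is a description of letters, not a site.

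C1qa moved with other macrophage genes. The genes most like it over all tumours were C1qb (0.898), Pld4 (0.877), C1qc (0.876), Fcer1g (0.865), Apoe (0.822), Csf1r (0.820), Spi1 (0.816) and Cyth4 (0.811), where Fcer1g encodes the common Fc receptor chain and Apoe a lipid carrier of macrophages. At equal Adgre1, the slope per SD of C1qa was 0.23 for C1qb (SE 0.017, adjusted p = 1.12e-21), 0.21 for C1qc (SE 0.020, adjusted p = 1.45e-15), 0.14 for Csf1r (SE 0.021, adjusted p = 4.91e-08), 0.14 for Mrc1 (SE 0.053, adjusted p = 0.0303) and 0.081 for Cd68 (SE 0.029, adjusted p = 0.0239). These 5 of 8 members stood against 18.0% of all genes called higher and 14.8% lower, and Csf1 (0.040, adjusted p = 0.126), Cd163 (0.012) and Arg1 (-0.061) were not called. Without the 4 arrays Csf1 passed (adjusted p = 0.00545). Mrc1 did not pass without the title form term (adjusted p = 0.0564), nor Cd68 after quantile normalization (adjusted p = 0.112). Spi1 (0.26, SE 0.021), Apoe (0.23), Il34 (0.14) and 5 of 6 class II genes, such as H2-DMa (0.21) and Cd74 (0.19), were higher too. Of the 8 adipocyte genes 0 were called. Markers of other cell types did move with C1qa. Without the 4 arrays 5 of 12 fibroblast, 5 of 10 endothelial, 5 of 10 luminal epithelial and 3 of 6 housekeeping genes were higher. Of the luminal genes 1 was lower. All genes were then 19% higher and 31.5% lower, and the part of these cell types was not tested.

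Slopes on C1qa at equal Adgre1 were also fitted in each title form alone. They are per SD of the part of C1qa that Adgre1 did not account for in that form. The units therefore differ between title forms, the sizes cannot be compared directly, and a difference was not tested. For C1qb the slope was 0.097 in running-number titles and 0.27 in other titles, and for C1qc 0.098 in running-number titles and 0.25 in other titles. Adgre1 and C1qa themselves had r 0.950 in running-number titles and 0.651 in other titles. The genes of largest slope were H2-Ea (0.38), Myl9 (0.30), Fndc10 (0.29), Cited4 (0.28), Lrg1 (0.27), Dkkl1 (0.26), Hp (0.26) and Scand1 (0.26) on the higher side and Slc6a15 (-0.27), Hnrnpc (-0.27), Slc44a1 (-0.26), Mir140 (-0.25), Mir15a (-0.23), Pbk (-0.22), Apool (-0.22) and Tsr1 (-0.21) on the lower side. H2-Ea is a class II gene, Myl9 a myosin light chain gene of smooth muscle, Hp the haptoglobin gene and Hnrnpc an RNA-binding protein gene. In running-number titles the slopes of Mir15a (-0.010), Hnrnpc (-0.041), Apool (-0.029) and Hp (0.027) were small. In other titles they were -0.31, -0.33, -0.28 and 0.33. Of the genes named here only Dkkl1 had the larger slope in running-number titles (0.33, and 0.26 in other titles). The count called was 6532 with all arrays and 10068 without the 4 of lowest correlation, where 19% of genes were higher and 31.5% lower. Without these arrays Hp (adjusted p = 0.0688) and Slc6a15 (adjusted p = 0.0533) were not called, and the slope of Slc44a1 was -0.14.

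Mrc1 and Cd163 formed the other tight pair. Their r was 0.860 (95% interval 0.806 to 0.899, rho 0.855, permutation p = 1e-05 each), with 0.910 in running-number titles and 0.821 in other titles. With Adgre1, r was 0.636 for Mrc1 and 0.531 for Cd163. With C1qa it was 0.610 for Mrc1 and 0.428 for Cd163, and with C1qb 0.550 for Mrc1 and 0.334 for Cd163, differences that were not tested. The genes most like Mrc1 over all tumours were Clec10a (0.864), Cd163 (0.860), Pltp (0.855), Folr2 (0.853), Ccl6 (0.847), Stab1 (0.843), Pf4 (0.835) and Cfp (0.835). Clec10a encodes a lectin, Folr2 a folate receptor, Stab1 a scavenger receptor, Pltp a phospholipid transfer protein and Cfp properdin of the complement system.

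The windows before the starts of Mrc1 (chr2:14229164-14229413, plus strand) and Cd163 (chr6:124304401-124304650, plus strand) are shown as those of the second tight pair, again from RefSeq in build GRCm38.p6 and with the same motif in capitals.
Mrc1: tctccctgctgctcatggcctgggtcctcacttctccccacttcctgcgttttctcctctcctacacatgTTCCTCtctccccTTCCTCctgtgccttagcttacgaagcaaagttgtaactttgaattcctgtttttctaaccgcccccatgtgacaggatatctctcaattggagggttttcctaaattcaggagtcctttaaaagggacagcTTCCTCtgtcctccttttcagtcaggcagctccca
Cd163: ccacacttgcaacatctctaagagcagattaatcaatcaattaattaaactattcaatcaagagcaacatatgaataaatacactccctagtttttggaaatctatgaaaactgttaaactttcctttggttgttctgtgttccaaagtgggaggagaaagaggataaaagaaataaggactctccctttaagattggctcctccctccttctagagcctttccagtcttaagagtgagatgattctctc
The Mrc1 window held 3 matches, all as TTCCTC, beginning at positions -180, -167 and -35 from the start, and the Cd163 window held 0. The other 3 motifs had 0 matches in both windows. In Cd68 there was 1 match to GAGGAA, 2 to TGANTCA and 1 to TTGCNNAA, and in Csf1 0 matches to any of the 4 motifs.

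With the general macrophage gene held equal, resident-like genes were higher with Mrc1, and so were genes of fat. At equal Adgre1 the slope per SD of Mrc1 was 0.50 for Cd163 (SE 0.034, adjusted p = 1.89e-25), 0.14 for Csf1r (SE 0.020, adjusted p = 9.56e-09) and 0.082 for C1qc (SE 0.026, adjusted p = 0.0199), which made 3 of 8 members called higher against 7.59% of all genes higher and 8.21% lower. Not called were Csf1 (0.039, adjusted p = 0.204), C1qa (0.060, adjusted p = 0.0575), C1qb (0.050), Cd68 (0.067) and Arg1 (-0.11), of which Cd68 passed without the 4 arrays (adjusted p = 0.0129) and C1qa after quantile normalization (adjusted p = 0.0273). Of 17 other resident-like genes 15 were higher, at a median slope of 0.24, among them the lectin genes Cd209f (0.60) and Clec10a (0.56), the hyaluronan receptor gene Lyve1 (0.57), the chemokine gene Pf4 (0.38), Folr2 (0.36) and the growth factor gene Igf1 (0.30), while Gas6 (0.052) and Selenop (0.082) were not called, of which Selenop passed without the 4 arrays (adjusted p = 0.0349). Of 13 genes of lipid-associated macrophages 2 were called, Apoe (0.091, not called without the 4 arrays at an adjusted p of 0.092) and the lipase gene Lpl (0.72), and of 14 genes of the arginase and inflammatory list 1 was, Retnla (0.71). Cx3cr1 was lower (-0.13, SE 0.025, adjusted p = 3.05e-05). Resident-like genes were not the only macrophage-related genes that moved with Mrc1. Without the 4 arrays, 5 of 8 monocyte genes (median 0.19) and 8 of 13 complement genes (median 0.14) were higher and 0 lower. The resident-like list then had 16 of 17 higher (median 0.23), against 5.67% of all genes higher and 4.27% lower. A difference between these lists was not tested.

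All 8 adipocyte genes were higher with Mrc1 at equal Adgre1, at a median slope of 0.59. They were Fabp4 (0.76), Retn (0.71), Cidec (0.67), Adipoq (0.64), Plin1 (0.55), Lipe (0.34), Pparg (0.27) and Lep (0.25), which fat cells use to store lipid, release it or signal. The genes of largest slope were Car3 (1.10), Cd36 (0.86), Dpt (0.79), Fabp4 (0.76), Cyp2e1 (0.74), Lpl (0.72), Retn (0.71) and Retnla (0.71). The mean of the adipocyte list ran from 6.04 over a median of 6.79 to 10.04 in running-number titles and from 5.79 over 6.93 to 9.99 in other titles. Adipoq, a defining marker, ran from 4.72 to 10.27 over all tumours, on a log2 scale that has no true zero. As a description, r of the list mean over these tumours, which share their arrays, was 0.613 with Cd163, 0.593 with Mrc1, 0.499 with Csf1r, 0.344 with Adgre1, 0.147 with Csf1 and -0.177 with Arg1. Endothelial genes (10 of 10 higher, median 0.15) and fibroblast genes (9 of 12 higher, median 0.17) moved with Mrc1 as well. The part of these cell types in the relation of the resident-like genes was not tested.

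On the lower side of Mrc1 at equal Adgre1 stood Cpm (-0.42), Tbx15 (-0.33), Sectm1b (-0.33), Slco1a5 (-0.33), Fbp1 (-0.32), Tmem154 (-0.30), Fgg (-0.30) and BC006965 (-0.29), of which Fbp1 encodes an enzyme of gluconeogenesis and Fgg a fibrinogen chain. Tbx15 and Fgg were not called without the 4 arrays (adjusted p = 0.26 and 0.08), and the count over all genes was 3149 with them and 1982 without. Cd163 in place of Mrc1 gave 2745 genes with all arrays and 1598 without the 4. Its slopes at equal Adgre1 were 0.49 for Mrc1 (SE 0.033) and 0.11 for Csf1r (SE 0.022, adjusted p = 4.96e-05), 2 of 8 members, with 6.99% of all genes higher and 6.78% lower, and -0.18 for Arg1 (SE 0.080, adjusted p = 0.112). The genes of largest slope were Car3 (1.12), Cd36 (0.92), Dpt (0.86), Cyp2e1 (0.84), Fabp4 (0.80), Retnla (0.78), Pdk4 (0.77) and Retn (0.73), and 15 of 17 resident-like and 8 of 8 adipocyte genes were higher. Lower were Fbp1 (-0.38), Cpm (-0.37), Tbx15 (-0.33), Slco1a5 (-0.29), Chad (-0.29), Wif1 (-0.29), Tmem154 (-0.28) and Scrg1 (-0.28), of which Tbx15 (adjusted p = 0.199) and Scrg1 (adjusted p = 0.0728) were not called without the 4 arrays.

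**Figure D4:**
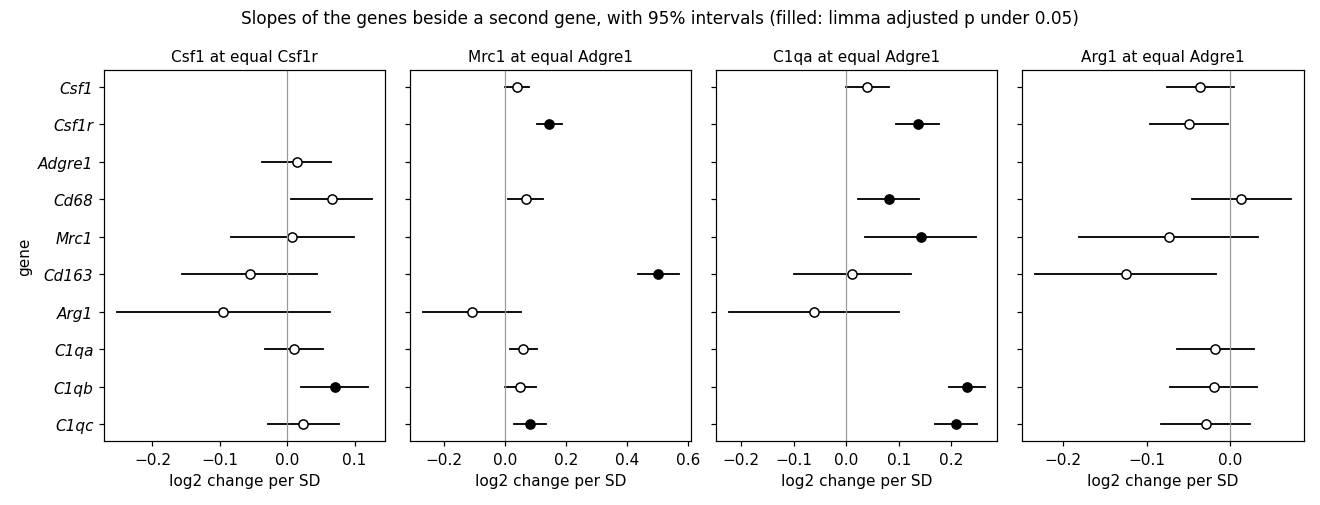
Slopes of the member genes (log2 change per SD, horizontal axes, each panel on its own scale) in 4 fits that hold a second gene equal, with 95% intervals and filled points for a limma adjusted p under 0.05. Cd163 stands apart on Mrc1 (0.50), C1qb (0.23) and C1qc (0.21) on C1qa, and no point is filled on Arg1.

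Arg1 was below 0 with each of the other members. Its r was -0.276 with Cd163 (95% interval -0.430 to -0.106, permutation p = 0.00186), -0.274 with Csf1r (-0.429 to -0.104, permutation p = 0.00185), -0.223 with Mrc1, -0.222 with C1qc, -0.209 with Adgre1, -0.205 with C1qa and -0.196 with C1qb, the last 5 with a permutation p between 0.0128 and 0.0279. With Cd68 it was -0.102 (permutation p = 0.253). In the fit of all genes on Arg1, 2 of 9 members were lower, Csf1r (-0.13, SE 0.039, adjusted p = 0.0374) and Cd163 (-0.20, SE 0.063, adjusted p = 0.035), against 2.94% of all genes called higher and 2.48% lower. Markers of other cell types moved with Arg1 too, as 6 of 10 endothelial genes (8 without the 4 arrays) and 3 of 12 fibroblast genes were lower, and their part was not tested. The count over all genes was 1080 with all arrays and 1859 without the 4 of lowest correlation. At equal Adgre1, 0 of 8 members passed in limma, with 1.82% of all genes called higher and 0.933% lower. The slopes there were -0.13 for Cd163 (95% interval -0.23 to -0.017), -0.049 for Csf1r (-0.096 to -0.0021) and 0.014 for Cd68 (-0.046 to 0.073), and the first 2 had an unadjusted p of 0.0241 and 0.0409.

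The other genes of the arginase and inflammatory list did not pass with Arg1 either. At equal Adgre1, 0 of 13 were called, with slopes from -0.10 to 0.037, among them Nos2 (-0.011), Il1b (-0.055) and Tnf (0.037). Of 6 class II genes 3 were lower, namely H2-Aa (-0.16, SE 0.040, adjusted p = 0.0101), H2-Ab1 (-0.16) and Cd74 (-0.15), and so was Cd14, whose product is a co-receptor for bacterial lipid (-0.19, SE 0.053, adjusted p = 0.0247). Of 10 luminal epithelial genes 1 was lower, the mucin gene Muc1 (-0.23, SE 0.067, adjusted p = 0.0416). Of 10 endothelial genes 1 was lower (5 without the 4 arrays), and of 12 fibroblast genes 0. The count of genes called was 548 with all arrays, 1009 without the 4 of lowest correlation and 2577 without the title form term.

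The genes closest to Arg1 were not on any of the macrophage lists. By r over all tumours they were Meis1 (0.593), Gdpd1 (0.586), Adcy8 (0.558), Slc38a1 (0.544), Dsc2 (0.534), Pigr (0.531), Itprid2 (0.515) and Foxc1 (0.512). Meis1 and Foxc1 encode transcription factors, Adcy8 an adenylyl cyclase, Slc38a1 a glutamine transporter, Dsc2 a desmosomal cadherin and Pigr the epithelial receptor that carries antibodies into secretions. At equal Adgre1 the largest slopes were Pip (1.10), Meis1 (0.85), Adcy8 (0.64), Mup5 (0.57), Scgb1b27 (0.56), Cpm (0.47), Klk1b11 (0.43) and Slc38a1 (0.43), with Pip, which encodes a prolactin-inducible secreted protein, at an SE of 0.18 and an adjusted p of 1.24e-05, and Meis1 at an adjusted p of 1.82e-09. Lower were Tspan8 (-0.38), Cel (-0.34), Crispld2 (-0.33), Thbs4 (-0.32), Cdhr1 (-0.31), Slitrk4 (-0.31), Meltf (-0.31) and Tceal8 (-0.30). All 16 passed without the 4 arrays as well. Of these, Cpm and Meis1 had slopes of -0.40 and -0.44 on Csf1 at equal Csf1r. Neither of these slopes on Csf1 passed in limma without the 4 arrays (adjusted p = 0.0997 and 0.16).

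**Figure D5:**
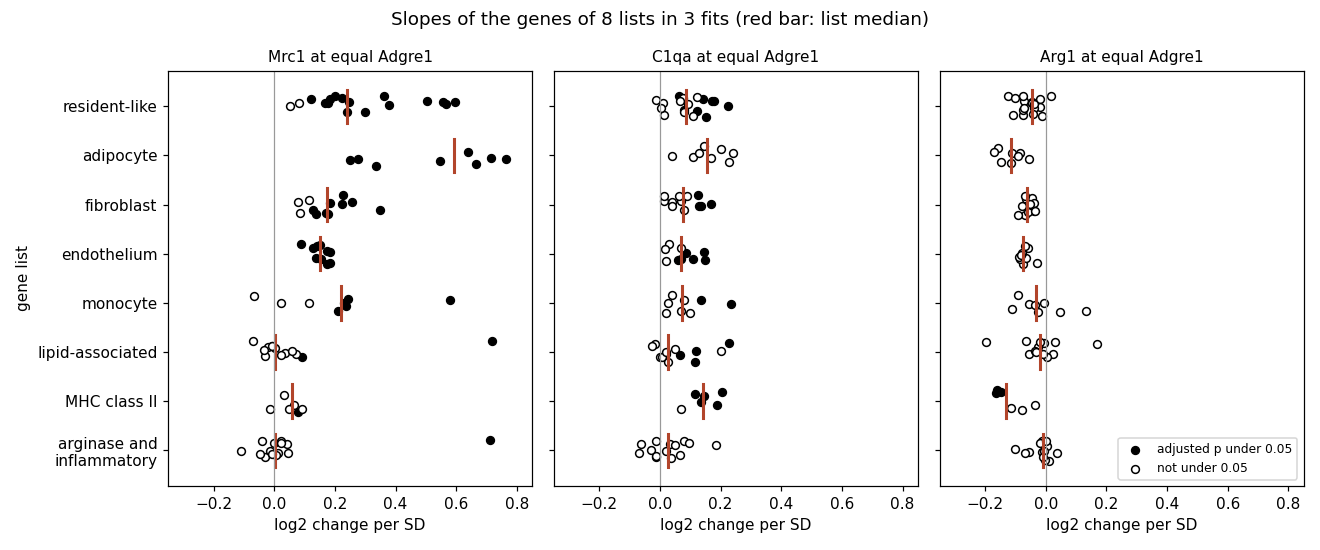
Slopes (log2 change per SD, horizontal axes) of the measured genes of 8 lists (rows) on Mrc1, C1qa and Arg1 at equal Adgre1, filled for a limma adjusted p under 0.05, with a bar at each list median. Adipocyte genes (median 0.59) and resident-like genes (0.24) lie to the right on Mrc1, and class II genes (0.14) on C1qa.

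Single tumours at the ends of these ranges show how the members combined, in centred log2 values. Animal 14126 had the highest Arg1 (2.51), with Mrc1 at -2.09, Cd163 at -1.44 and C1qb at -0.080. Animal 14098 had the highest Mrc1 (1.95), with Cd163 at 2.12, Arg1 at -1.31 and Csf1 at 0.15. Low resident-like genes did not always come with high Arg1, as animal 14056 had the lowest Mrc1 (-2.33) with Arg1 at -0.60. Animal 14185 had the lowest Csf1r (-1.35) and C1qb (-1.28), with Csf1 at -0.52 and Arg1 at 0.93. A high Csf1r did not always come with the other genes either. In animal 14094 Csf1r was highest (1.02), while Adgre1 was at -0.59, C1qa at -0.39 and C1qc at -0.54, and its array was among the 4 of lowest correlation. The lowest Csf1 (-0.97, animal 14312) was also from an array of these 4, with Mrc1 at -1.21, C1qa at 0.073 and Arg1 at 0.90.

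For 2 animals an array with the suffix r stood beside the plain one. The suffix r values were centred on the mean of 6 arrays, so each difference also holds the error of that mean. After the mean of each set was subtracted, suffix r minus plain in animal 14050 was -0.079 for Csf1, 0.11 for Csf1r, -0.12 for C1qb, 0.14 for Arg1, -0.77 for Mrc1 and -0.65 for Cd163. In animal 14352 it was 0.24 for Csf1, 0.26 for Csf1r, 0.13 for C1qb, -0.30 for Arg1, -0.12 for Mrc1 and -0.86 for Cd163. Cd163 moved by more than any other of these genes in animal 14352, and Mrc1 in animal 14050. Whether the arrays of a pair share an RNA extract is not given in the sources used here.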

How the data were processed

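Total RNA of snap-frozen whole tumours, extracted with Trizol and labelled with biotin, was measured on Affymetrix Mouse Gene 1.0 ST arrays. The deposited values are log2 expression levels per probeset, produced by the authors with RMA. That method corrects background, is meant to make the distributions of arrays alike, and summarises probes. The deposited array medians still differed, averaging 6.18 in running-number titles, 5.96 in other titles and 5.45 in suffix r arrays. The version of RMA is not given in the sources used here, nor is a build. Of 35556 probesets, 21789 had 1 gene symbol in the platform annotation, 1621 several and 12146 none. A gene was represented by its probeset of highest mean, which gave 19938 genes, 999 of them with several probesets. The number of arrays limits the precision. Nothing says how tumours were taken beyond 1 animal each, and p-values judge each relation or difference against the spread between these tumours.

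Values were centred within title form. All genes were fitted on each member in limma (version 3.58.1, under R 4.3.3, moderated variances with an intensity trend), with title form as a term, and 5 further fits held Csf1r or Adgre1 equal. P-values were adjusted by Benjamini-Hochberg over all genes, with 0.05 as the threshold, and tests are two-sided. Correlations over the 45 pairs used Pearson r, Spearman's rho and 100000 permutations in Python 3.11.15, numpy 2.4.6 and scipy 1.17.1. Named genes were the members, the 8 genes of highest r with Csf1, Csf1r, Mrc1, Arg1 and C1qa, the 8 of lowest r with Csf1, and in each fit at equal Csf1r or Adgre1 the 8 largest slopes in each direction among genes past the threshold with 1 sign in both title forms, beside genes of the lists. The members and lists were chosen with earlier results of these data known. The kind of fit was tried on simulated data with 19938 genes, a random regressor in place of Csf1 and independent noise for each gene. It recovered 35% of slopes of 0.3 SD and 99% of slopes of 0.6 SD. Real genes vary together, so this recovery need not hold for the fit on Csf1. Alternatives were quantile normalization, the array median as a term, no title form term, suffix r arrays included, the probeset of highest SD, eBayes without trend, the 25% of genes of lowest mean level left out, and leaving out the 4 arrays of lowest mean correlation.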

Additional observations from a re-analysis of the deposited data

Results flagged for a closer look

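For 2 genes the slope on Csf1 differed between title forms, by limma's test of the difference with adjustment over all genes. Slopes within a title form are per SD of Csf1 in that form. The tested difference is per SD of Csf1 over both forms, so it need not equal the gap between those slopes. Tnfaip6, whose product binds hyaluronan, had a slope of 0.27 in running-number titles and -0.044 in other titles, a difference of 0.34 (SE 0.070, adjusted p = 0.0455). Krtap9-3, a keratin-associated protein gene, had -0.14 in running-number titles and 0.18 in other titles, a difference of -0.33 (SE 0.068, adjusted p = 0.0455). Without the 4 arrays of lowest correlation 0 genes passed this test. None of the members was among these genes.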

How the results depend on the processing

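Of the correlations of member pairs under the alternatives, 266 kept their direction and their side of the threshold, 2 no longer passed and 2 newly passed. Counts of genes called moved more. Without the 4 arrays of lowest mean correlation the count was 2422 on Csf1 (against 6205), 51 on Csf1 at equal Csf1r (3399), 1982 on Mrc1 (3149), 1598 on Cd163 (2745), 1009 on Arg1 (548) and 10068 on C1qa (6532), the last 4 at equal Adgre1. Leaving out the 25% of genes of lowest mean level, which tests fewer genes, gave 3253 on Csf1 and 1009 on Csf1 at equal Csf1r. Quantile normalization gave 5161 on Csf1 at equal Csf1r and 1655 on Cd163 at equal Adgre1, and the array median as a term 214 and 1725 for the same fits. Without the title form term 2577 genes were called on Arg1 at equal Adgre1. The difference in slope on Csf1 between title forms gave 0 genes with suffix r arrays, 9 after quantile normalization, 0 with the array median and 0 without the 4 arrays (limma, against 2 with 3190 at an unadjusted p under 0.05). The slope of Arg1 on Csf1 was -0.14 without the title form term and -0.21 without the 4 arrays, past the threshold in neither. The r of Cd163 minus that of Adgre1 with Csf1 was -0.121 with the array median and -0.132 without the 4 arrays. After quantile normalization the title form difference turned to -0.056 for Csf1, -0.19 for Csf1r, -0.010 for Adgre1, -0.12 for Mrc1, -0.082 for Cd163, -0.13 for C1qb and -0.097 for C1qc. Beyond the smaller number of genes tested, the cause of these changes was not tested. The title form difference was not run with suffix r arrays, since centring by set removes it, nor without its own term. No paired analysis was possible because the labels give 1 biological group.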
